A study of Mus musculus with 9 samples.

Results

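Rora and Rorb encode RORα and RORβ, orphan receptors of the nuclear receptor superfamily, and were examined here for peaks of SAFB, a nuclear RNA-binding protein, in mouse embryonic stem cells. The members are the peaks of the authors' single list whose midpoint fell inside the body of either gene, on the strand of that gene, in the GENCODE M21 annotation of mm10. This gave 64 of the 30998 peaks in the list, 64 in Rora and 0 in Rorb. Both genes were chosen on these counts, which are therefore given as a description with no test.

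An antibody to SAFB1 was used on lysates of wild-type cells (3 libraries: parent line, clone 20 and clone 44) and of cells lacking both Safb and Safb2 (2 libraries: clones 4 and 13). A FLAG antibody was used on double-knockout clone 13 carrying a full-length SAFB1 plasmid (1 library) or an eGFP plasmid (1 library), and IgG on wild-type cells (2 libraries: parent line and clone 20). For the SAFB1 plasmid library the genotype field says wild type but the title says double-knockout clone 13, and it was taken as the title has it. All 9 libraries came from a male CAST/B6 line with a Rosa26-RMCE locus, treated with doxycycline for 3 days. The list holds positions and no read counts, so no comparison between antibodies or genotypes was possible, the depth behind a peak is unknown, and the cell type could not be checked against marker levels. A region without a peak may hold RNA that was not made, not bound, or bound below the authors' threshold, and these cannot be told apart here.

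RORα and RORβ bind DNA as monomers at response elements made of a receptor half-site preceded by an A- and T-rich stretch, and activate genes that the repressors REV-ERBα and REV-ERBβ (Nr1d1 and Nr1d2) oppose at the same elements. RORα is known for its roles in cerebellar Purkinje cell development, where its loss gives the staggerer mouse, and in the circadian clock and lipid metabolism. RORβ is known from the retina, the neocortex and the pineal gland. Both genes use alternative promoters, so that their protein isoforms differ at the amino-terminal end and share the DNA-binding and ligand-binding domains.

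The paralogs share most of their exon structure. The first 2 exons of Rora-201, the longest Rora transcript (11 exons), and the first exon of Rorb-203 (10 exons) are followed by 9 exons in each gene that correspond in order, and 7 of the 9 are equal in length. Over these 7 exons, all wholly coding in both genes, 568 of 815 bases were identical at the same position (69.7%). The first shared exon, of 86 bases, had the highest identity of the 7, with 71 identical bases (82.6%). It encodes most of the first zinc finger of the DNA-binding domain, and its sequence is shown because the peaks of Rora all lay upstream of it. It spans chr9:69348132-69348217 (mm10, plus strand) in Rora and chr19:18988031-18988116 (mm10, minus strand) in Rorb. Capitals mark the 15 positions at which the genes differ.

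Rora first shared exon: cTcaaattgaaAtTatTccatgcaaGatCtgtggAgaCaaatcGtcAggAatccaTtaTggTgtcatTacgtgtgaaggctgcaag
Rorb first shared exon: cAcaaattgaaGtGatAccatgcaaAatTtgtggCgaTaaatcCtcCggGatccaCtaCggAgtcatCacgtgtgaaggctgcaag

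The isoforms of Rora that code for protein begin far apart. Rora-201 starts at the 5′ end of the gene, and Rora-202, the transcript that GENCODE marks as principal, starts 635.9 kb downstream. Their own coding bases, before the first shared exon, are shown because the region between these 2 starts held 63 of the 64 peaks. Those of Rora-201 number 196 and lie in 2 exons within chr9:68653807-69196104, whereas those of Rora-202 number 28, at chr9:69290021-69290048, all on the plus strand of mm10. Capitals mark the start codon.

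Rora-201 own coding bases: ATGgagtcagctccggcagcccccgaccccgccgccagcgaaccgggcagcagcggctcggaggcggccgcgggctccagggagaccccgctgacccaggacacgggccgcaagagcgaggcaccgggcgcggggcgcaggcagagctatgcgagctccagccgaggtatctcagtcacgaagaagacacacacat
Rora-202 own coding bases: ATGtattttgtgatcgcagcgatgaaag

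Rora (ENSMUSG00000032238.17, chromosome 9, 68653786 to 69388246, mm10, plus strand, 734.5 kb, 6 transcripts) held 64 sense peaks, or 8.71 per 100 kb, and Rorb (ENSMUSG00000036192.15, chromosome 19, 18930605 to 19111196, minus strand, 180.6 kb, 5 transcripts) held 0. Of all 55450 annotated genes, 12.8% had at least 1 sense peak, and of the 21951 protein-coding genes 26.2%. By number of peaks Rora ranked 7 among protein-coding genes. Among the 567 protein-coding genes of 300 kb or longer, 68.6% had a peak, the median was 0.749 peaks per 100 kb (quartiles 0 and 2.63), and Rora ranked 19 by peaks per 100 kb. The genes of this length closest to Rora in density were Ebf1, a transcription factor of early B cells (8.70 per 100 kb, 34 peaks), Atrnl1 (8.81, 46 peaks) and the cadherin gene Cdh4 (8.53, 39 peaks). Among the 1925 protein-coding genes of 100 to 300 kb, the length class of Rorb, 68.1% had a peak and 614 had 0, so that a gene of this length without a peak was common. No 3 genes closest to Rorb could be named, since all genes without a peak are tied with it.

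All peaks of Rora were on its own strand. The opposite strand held 0 peaks inside the gene body of Rora, including Gm15511, an antisense gene of 15.4 kb that overlaps it, and likewise 0 inside Rorb. No second plus-strand gene covered any Rora peak. In the 100 kb upstream of Rora neither strand held a peak, and the nearest plus-strand peak upstream was 711.2 kb away, in Vps13c. In the 100 kb downstream there were 2 plus-strand peaks and 0 on the minus strand. The nearest of them was 27.6 kb beyond the end of Rora, in Ice2, a subunit of the little elongation complex, which held 1 peak in 35.2 kb.

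Around Rorb the list was nearly empty. The 100 kb on either side held 0 peaks on both strands. The nearest minus-strand peaks were 758.0 kb upstream, outside annotated genes of that strand, and 308.8 kb downstream, in Ostf1. The neighbouring gene Trpm6, a magnesium-permeable channel 38.1 kb from the 3′ end of Rorb, held 1 sense peak in 142.5 kb. On the other side the nearest protein-coding gene was Anxa1, 1262.2 kb away, with 1 sense peak in 17.5 kb.

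**Figure D1:**
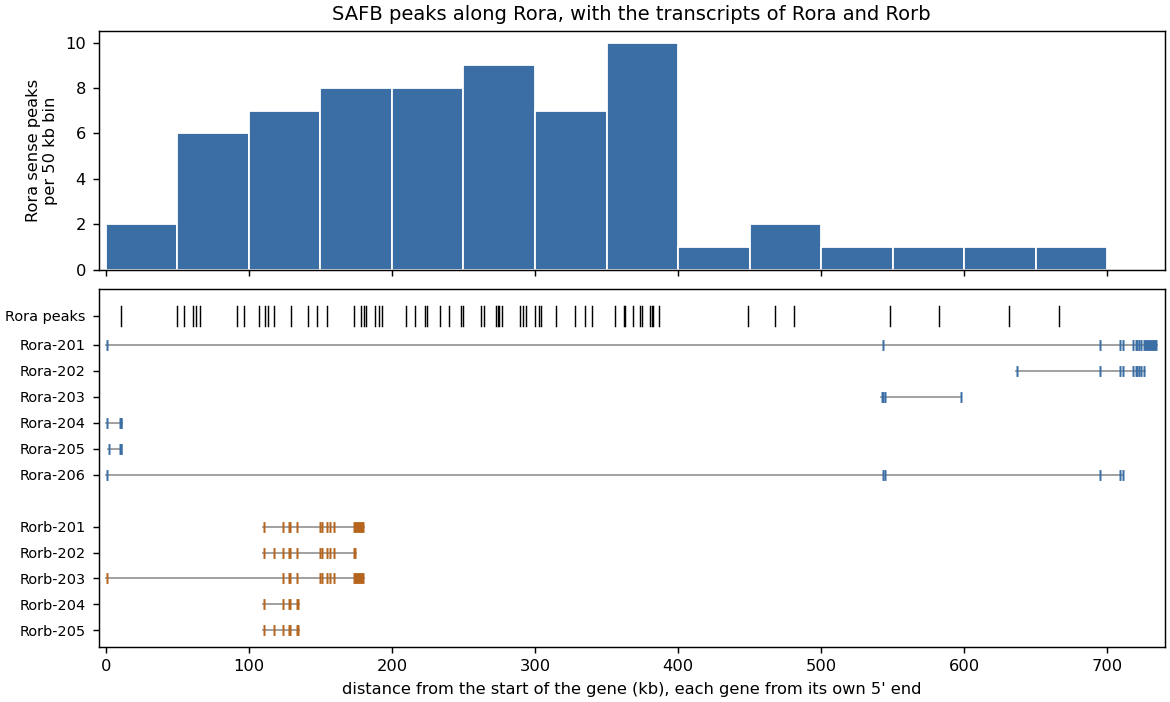
Number of SAFB sense peaks in bins of 50 kb along Rora (upper panel) and the midpoints of the 64 peaks above the annotated transcripts of Rora (blue) and Rorb (brown; lower panel), with exons as thick marks. The x axis is distance in kb from the 5′ end of each gene. The bins of the first 400 kb hold 2 to 10 peaks, the later bins 0 to 2, and Rorb has no peaks to draw.

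The Rora peaks lay in the far upstream introns and were absent from the part of the gene that encodes the shared domains. Intron 1 of Rora-201, 542.1 kb long and 73.8% of the gene, held 60 peaks (11.1 per 100 kb), counting the first peak, which lies in an exon of a shorter transcript. Intron 2, of 152.0 kb, held 4 (2.63 per 100 kb). Introns 3 to 10, of 0.793 to 13.5 kb each, held 0, as did the last exon of 9450 bases. From the first shared exon to the gene end, 40.1 kb of Rora and 57.5 kb of Rorb each held 0 peaks. The upstream part held 64 peaks in 694.3 kb of Rora (9.22 per 100 kb) and 0 in 123.1 kb of Rorb. No test was made of these differences. The 40.1 kb of Rora lay in its sparse 3′ part, since the gene after 400 kb held 2.09 peaks per 100 kb. Other stretches there, of 66.6 and 48.2 kb, were also empty, so the absence is not read as a trait of the shared exons.

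Within intron 1 the peaks thinned out after 386.5 kb from the start of the gene. The first 400 kb held 57 peaks (14.25 per 100 kb) and the remaining 334.5 kb held 7 (2.09 per 100 kb), a division chosen after the positions were seen. In bins of 50 kb, the counts over the first 400 kb were 2, 6, 7, 8, 8, 9, 7 and 10. The bins after it held 1, 2, 1, 1, 1, 1 and, in the last 34.5 kb, 0. The earlier bins from 50 kb on therefore each held at least 6 peaks, and no later bin held more than 2.

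The 7 peaks after 400 kb lay 449.1, 467.7, 480.9, 548.0, 582.4, 631.1 and 666.2 kb from the gene start. The longest empty stretches around them were 67.6 kb from the last peak to the 3′ end and 66.6 kb before the peak at 548.0 kb. Next came 62.0 kb between the peaks at 386.5 and 449.1 kb. The peaks at 449.1, 467.7 and 480.9 kb lay closer together, with gaps of 18.1 and 12.7 kb. Another stretch of 38.2 kb without a peak followed the first peak of the gene.

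No peak of Rora lay within 5 kb downstream of an annotated transcript start. The 6 transcripts have 4 starts once those within 500 bases are merged. Rora-201, Rora-204 and Rora-206 share the first, Rora-205 starts 1.52 kb further on, Rora-203 at 541.8 kb and Rora-202 at 635.9 kb. Within 5 kb downstream of any of them there were 0 of 64 peaks (95% Wilson interval 0 to 5.66%), whereas in other protein-coding genes of 300 kb or longer 222 of 5219 pairs of peak and gene (4.25%, 3.74 to 4.84) lay this close to a start of their own gene. The interval for Rora includes that share. In all other protein-coding genes together the share was 17.4%. Within 10 kb downstream of a Rora start there were 2 peaks. Expression was not known, so the other genes of this length were not matched to Rora on it.

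Each start had its own distance to the next peak. From the first start the next peak midpoint was 10.5 kb downstream, from that of Rora-205 8.94 kb, from that of Rora-203 6.28 kb and from that of Rora-202 30.3 kb. Upstream of the Rora-202 start the nearest peak was 4.82 kb away, and upstream of the Rora-203 start 60.9 kb away. Both internal starts lay in the sparse part of the gene.

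Between successive starts after that of Rora-205, each stretch had a lower density than the one before it. The 540.2 kb from the Rora-205 start to the Rora-203 start held 60 peaks (11.1 per 100 kb), the 94.1 kb from there to the Rora-202 start 3 (3.19 per 100 kb), and the 98.6 kb from there to the end of the gene 1 (1.01 per 100 kb). The first 1.52 kb, between the first start and that of Rora-205, held 0. The thinning did not begin at a start. It lay inside the longest stretch, after 386.5 kb, and thus before the Rora-203 start at 541.8 kb. Later peaks of that stretch lay only at 449.1, 467.7 and 480.9 kb. The lower densities rest on 3 and 1 peaks. Counting starts of protein-coding transcripts alone, 63 of 64 peaks (98.4%, interval 91.7 to 99.7) lay between the starts of Rora-201 and Rora-202, in 86.6% of the length of the gene.

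The transcript models hold the peaks unequally. The spans of Rora-201 and of Rora-206, which is annotated as a target of nonsense-mediated decay, both cover all 64 peaks. The span of the principal transcript Rora-202, of 90.1 kb, covers 1 peak (1.11 per 100 kb). Rora-203, a non-coding transcript of 55.3 kb, covers 2, Rora-204, a non-coding transcript of 11.2 kb at the first start, covers 1, and Rora-205 covers 0. A peak in the shared sequence of several models cannot be assigned to one of them. In Rorb, Rorb-203 starts at the 5′ end and Rorb-201 and Rorb-202 start 110.1 kb downstream, and the spans of all 5 transcripts hold 0 peaks.

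The only exonic peak of Rora was its first. It spans 68663598 to 68664880 on chromosome 9 (1283 bases), of which 1080 lie in the last exon of Rora-204 (68663801 to 68664967) and the rest in the intron before it. The exonic share of Rora was 1 of 64 (1.56%, interval 0.276 to 8.33), against 194 of 5219 pairs of peak and gene (3.72%, 3.24 to 4.27) in other protein-coding genes of 300 kb or longer, a share inside the interval of Rora. In all other protein-coding genes it was 14.7%. No exon of a protein-coding Rora transcript held a peak midpoint.

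The middle 300 bases of this peak, the only Rora peak whose sequence could be read from a transcript, lie at chr9:68664090-68664389 (mm10, plus strand). They are shown because SAFB proteins are described as binding purine-rich RNA. Capitals mark matches to the purine hexamer GAAGAA or to its shifted forms, which are AGAAGA as well as AAGAAG, on the RNA strand. These motifs and the window were chosen with results of the list known.

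Rora first peak centre: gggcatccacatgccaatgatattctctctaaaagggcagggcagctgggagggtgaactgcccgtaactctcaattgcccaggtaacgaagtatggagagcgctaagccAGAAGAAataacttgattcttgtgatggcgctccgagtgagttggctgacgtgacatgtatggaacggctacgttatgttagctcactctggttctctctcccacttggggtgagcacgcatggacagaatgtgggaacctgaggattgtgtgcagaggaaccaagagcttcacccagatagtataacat

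The window held AGAAGA and GAAGAA once each, overlapping in 1 stretch of 7 bases, and AAGAAG 0 times. TTCTTC, the reverse complement of GAAGAA, had 0 matches. Of the 2621 peaks of the list whose middle 300 bases lie within 1 exon, 31.8% held AGAAGA, 28.7% GAAGAA, 27.3% AAGAAG and 48.0% at least 1 of the 3, while 10.7% held TTCTTC. A and G made up 55.0% of the Rora window, against a median of 53.3% over these 2621 windows (quartiles 49.7 and 57.0%). The Rora window thus lay between the quartiles. The other 63 peaks are intronic and their sequence was not read.

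Rora peaks differed in width, within the range of intronic peaks of other protein-coding genes (74 to 4505 bases). Widths ran from 74 to 2042 bases with a median of 559 (quartiles 340 and 980.5), against a median of 650 (quartiles 316 and 1183) for intronic peaks of other protein-coding genes and 596 for all peaks of the list. At least as wide as 596 bases were 27 of the 64 (42.2%, interval 30.9 to 54.4). The widest, of 2042 bases, lay 374.7 kb from the start, followed by peaks of 1892 bases at 262.3 kb, 1857 bases at 54.9 kb and 1823 bases at 106.9 kb. In all, 14 peaks were 1000 bases or wider and 4 were under 100 bases, counts that were not made for other genes. The quartiles of the Rora widths lay closer together than those of the other intronic peaks. The median width was 576 bases in the first 400 kb and 542 bases, over 7 peaks, after it.

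In the dense part the peaks lay close together. The gap between neighbouring peaks had a median of 4.95 kb over the whole gene (quartiles 1.84 and 10.7, range 0.328 to 66.6), and 32 of 63 gaps were under 5 kb. Peaks with gaps under 5 kb formed 8 runs of 3 or more, which held 35 of the 64 peaks. The longest run, of 9 peaks, spanned 362.0 to 386.8 kb from the start. The next longest held 5 peaks between 49.3 and 65.8 kb. All 8 runs lay in the first 400 kb, which follows in part from a division drawn after the positions were seen. Gaps and runs were not computed for other genes.

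**Figure D2:**
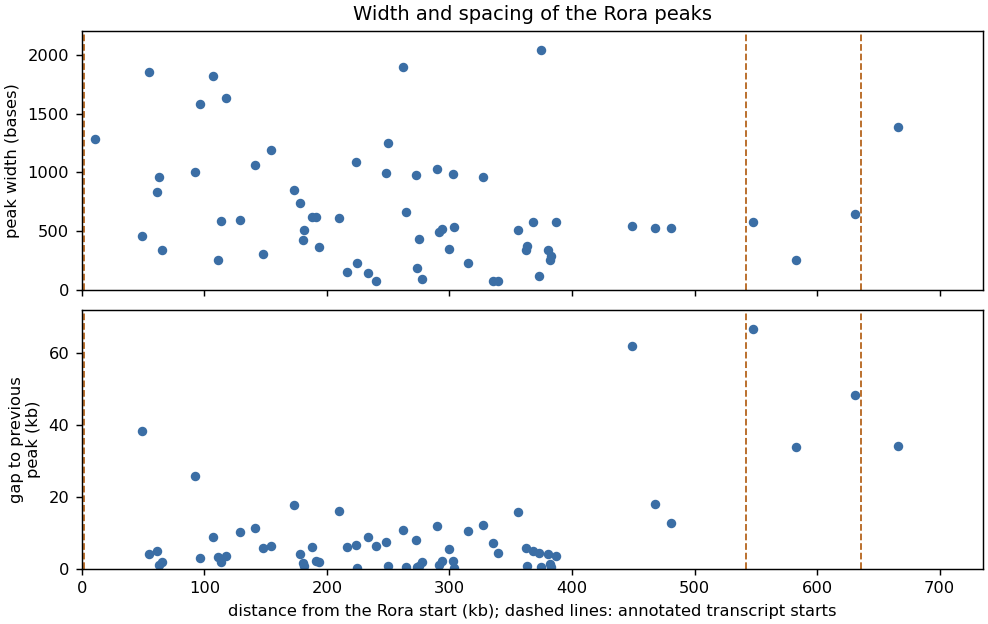
Width in bases of each of the 64 Rora peaks (upper panel) and gap in kb to the peak before it (lower panel), against distance in kb from the start of Rora; dashed lines mark the 4 annotated transcript starts. Widths from 74 to 2042 bases occur in the first 400 kb, and 3 of the gaps after it exceed 40 kb.

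Most Rora peaks were far from any annotated exon. The distance from the peak midpoint to the nearest exon of any Rora transcript had a median of 169.8 kb (quartiles 98.9 and 223.5, highest 264.6), and 61 of 64 peaks were more than 10 kb away. The 3 others were the exonic peak, the peak at 548.0 kb, 4.23 kb from an exon, and the peak at 631.1 kb, 4.82 kb from one. Intron 1 of Rora-201 alone is 542.1 kb long and 73.8% of the gene, so most positions in Rora are far from an exon. The same distances were not computed for peaks of other genes, so they are not read as a trait of the Rora peaks.

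The peak names carry numbers that rise along every chromosome and strand. If each number stands for 1 call made before the authors' selection, which no source states, the numbers tell how many calls were made around the kept peaks. From the first to the last Rora peak there were 217 calls, of which 64 were kept (29.5%), against 9.11% over the whole list. The same share in the 71 other protein-coding genes of 300 kb or longer with at least 20 sense peaks had a median of 21.6% (quartiles 16.0 and 27.7%, range 6.65 to 55.7), and 14 of them exceeded Rora. Among the 71 are 3 overlapping gene models, Gm37013, Gm37388 and Gm42416, that hold the same 38 peaks. Counted once they leave 69 sets of peaks, of which 12 exceeded Rora. Within Rora, 57 of 163 calls were kept up to the last peak of the first 400 kb (35.0%, 43.2 calls per 100 kb) and 7 of 54 after it (13.0%, 19.3 calls per 100 kb). Rora and the division at 400 kb were both chosen on the kept peaks, so these shares are a description from which nothing is read. The plus-strand peaks on either side of Rora, over 1472.6 kb, had 209 calls between them that were not kept, and 18.5 calls per 100 kb with the 64 kept ones. Around Rorb, 11 calls separated the nearest minus-strand peaks on either side, over 1246.8 kb (0.882 calls per 100 kb). These counts, like the set of 71 genes, were chosen after the values were seen.

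The lean of the Rora peaks toward the 5′ part of the gene was set beside that in other long genes, a measure chosen after the positions were seen. The first 50% of Rora held 50 of its 64 peaks (78.1%, interval 66.6 to 86.5). The same share in the 71 other genes of at least 300 kb and 20 peaks had a median of 46.7% (quartiles 30.6 and 63.1, range 0 to 95.5), and 5 of them had a higher share than Rora. Those 5 were Adgrv1 (95.5%), Ptprt (91.3%), Adamtsl1 (85.7%), Foxn3 (84.6%) and Slit3 (81.8%), named after their values were seen. The last 25% of Rora held 3 peaks (4.69%, interval 1.61 to 12.9), against a median of 22.9% in the other genes. Rora thus stood toward the upper end of a wide range.

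**Figure D3:**
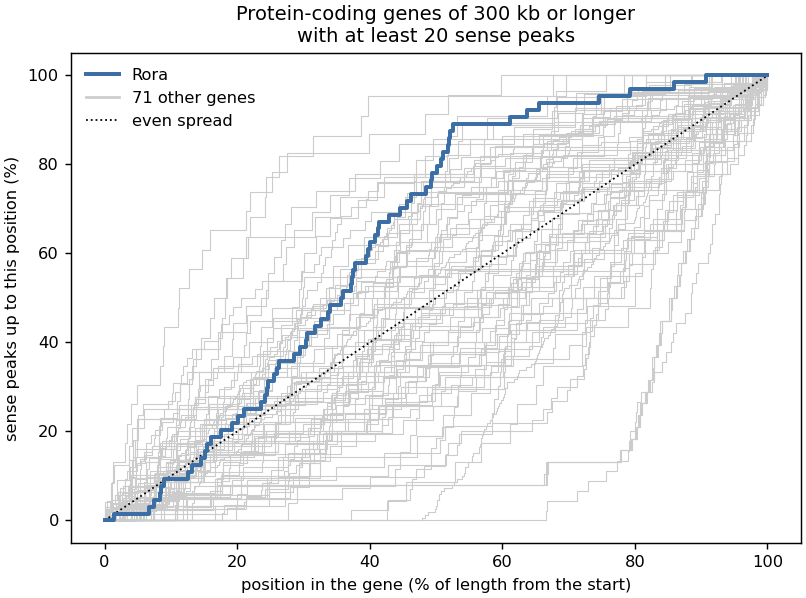
Percent of a gene's sense peaks reached by each position, as percent of gene length from the start, for Rora (blue) and the 71 other protein-coding genes of 300 kb or longer with at least 20 sense peaks (grey); the dotted line is an even spread. Rora runs close to the dotted line near the start and above it over the rest of the gene, with 78.1% of its peaks in the first 50% of the gene.

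Within the nuclear receptor superfamily the peaks of the list were concentrated in Rora, which was chosen on its count. Of the 49 mouse nuclear receptor genes, 10 held at least 1 sense peak (20.4%, interval 11.5 to 33.6), and 6 held at least 2. The interval includes the 26.2% of all protein-coding genes with a peak. The median was 0 peaks, both in this list and over all protein-coding genes, although the median gene length was 47.1 kb in the list and 17.4 kb over all. The 49 genes held 83 peaks in all, of which Rora had 64. Next came Nr3c1, the glucocorticoid receptor, and Nr6a1, which represses pluripotency genes as cells differentiate, with 4 peaks each (3.67 and 1.96 per 100 kb). Nr2c2 held 3, and Esrrb, a factor of the pluripotency network of embryonic stem cells, and Nr2c1 held 2 each. The oestrogen receptor gene Esr1, the retinoic acid receptor gene Rara and the thyroid hormone receptor gene Thra held 1 each.

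Long receptor genes differed in their counts. Rora held 64 peaks in 734.5 kb, against 1 in the 394.0 kb of Esr1 (0.254 per 100 kb). The other 4 receptor genes over 300 kb, named after their values were seen, held 0 peaks. They were Esrrg (606.1 kb), Rarb (388.3 kb), Thrb (377.8 kb) and Nr3c2 (345.6 kb). Of all 567 protein-coding genes of 300 kb or longer, 178 (31.4%) had no sense peak. Esrrb held both of its peaks in its first intron, which makes up 67.7% of the gene, as Rora held 60 of 64 in its own, which makes up 73.8%. These counts by first intron were made after the positions were seen. In Nr3c1 and Nr6a1, whose first introns are 3.05% and 0.530% of the gene, 0 of 4 peaks each lay there. The remaining 39 nuclear receptor genes, among them Rorb, Nr1d1 and Nr1d2, had no sense peak.

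**Figure D4:**
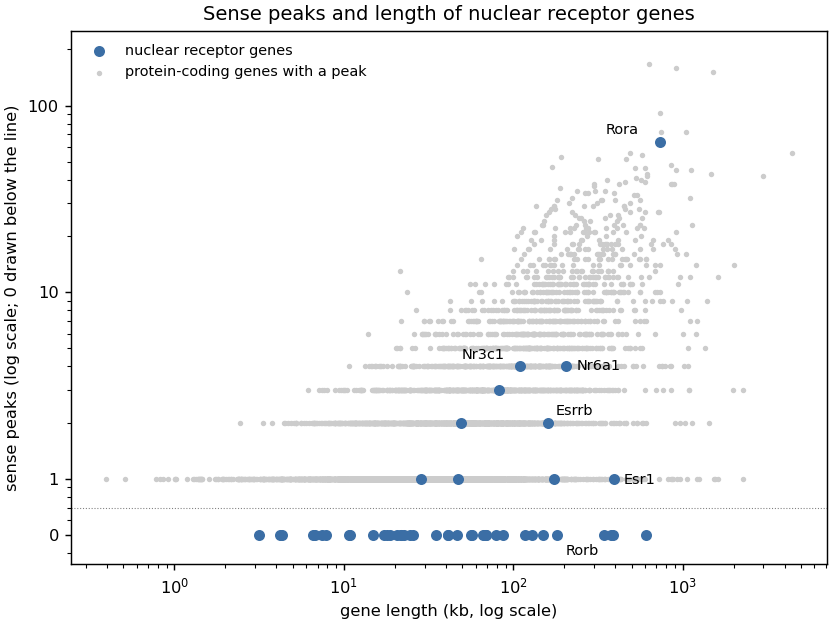
Number of sense peaks against gene length in kb, both on log scales, for the 49 nuclear receptor genes (blue) and for all protein-coding genes with a peak (grey); genes with 0 peaks are drawn below the dotted line. Rora lies at 64 peaks, the other nuclear receptor genes lie at 0 to 4, and Rorb at 0.

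Genes that act with the Ror receptors held at most 7 sense peaks each. Of 23 genes of the circadian clock, 5 had a sense peak (21.7%, interval 9.66 to 41.9), against 26.2% of all protein-coding genes, a share near the background. These were Clock, whose protein pairs with that of Arntl, an ROR target, with 3 peaks, and the repressors Cry1 and Cry2, the period gene Per3 and the PAR bZIP factor gene Dbp with 1 each. The other 18 had 0, among them Arntl itself, Arntl2, Npas2, Per1, Per2, Nr1d1, Nr1d2, Nfil3, Tef, Hlf, Bhlhe40, Bhlhe41, Ciart, Csnk1d, Csnk1e, Fbxl21 and Timeless. Of 20 coactivators and corepressors of nuclear receptors, 9 had a sense peak (45.0%, interval 25.8 to 65.8). This share lay between the 26.2% of all protein-coding genes, whose median length was 17.4 kb, and the 68.1% of those of 100 to 300 kb, in a list whose median gene length was 94.4 kb. The steroid receptor coactivator genes Ncoa1 and Ncoa2 held 7 and 4 peaks, the acetyltransferase genes Crebbp and Kat2b 5 and 4, Lcor 4 and the corepressor gene Ncor1 4. Ppargc1b, a coactivator of mitochondrial genes, held 3, and Nrip1 and the acetyltransferase gene Kat5 1 each. The other 11 had 0, among them Ep300, Ncoa3, Ppargc1a, Med1, Hdac3, Sirt1, Gps2, Hr, Tbl1x and Tbl1xr1. All 4 peaks of Ncor1 were exonic, whereas those of Ncoa1, Ncoa2 and Kat2b were all intronic.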

How the data were processed

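Per the labels' protocols, the RIP-seq libraries were depleted of ribosomal RNA and carried ERCC spike-ins. The submitters' processing notes name mm10, STAR, Subread and featureCounts without versions; the peak caller and any pooling of libraries were not given in the sources used here. For the series the authors deposited 1 list with 6 columns and no header. Its starts were read as counted from 0, which no source states, and written counted from 1. The deposited score is 500 in every peak and was not used. The list gives no values per library, so depth is unknown and no test between groups was run.

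Peaks were placed by midpoint in GENCODE M21 genes with Python 3.11.15 (numpy 2.4.6, scipy 1.17.1). Exons of all transcripts were used, and a peak counted for every gene of its strand that covers its midpoint. The 95% Wilson intervals of shares assume independent peaks and hold counting error alone. Counting was tested on simulated peaks. Sequences came from the GENCODE M21 transcripts.

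Named genes are Rora and Rorb, the 10 genes of each list with most peaks (with ties), the 3 long genes closest to Rora in density (for Rorb all tie at 0), and neighbouring and overlapping genes; some genes that this rule covers were left unnamed and are not reported here. The genes and lists were chosen with earlier results of these data known. Alternatives changed placement, peak width, merging, exon set and start window.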

Additional observations from a re-analysis of the deposited data

How the results depend on the processing

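For 14 results, 49 values were recomputed under alternative settings. Of these, 39 stayed close to the main value (counts and densities within 1.5 times, shares inside the 95% interval) and 10 moved further. Reversal of a direction was not examined. Rorb held 0 peaks, so the planned ratio of Rora to Rorb and the exonic share of Rorb could not be computed. The 5 alternative placements and selections could not have added a peak to Rorb, since the nearest minus-strand peak lay 308.8 kb outside it. Their values of 0, as counts and as densities, are among the 39 and say nothing about robustness. Restricting the list to peaks at least as wide as its median left 27 peaks in Rora (3.68 per 100 kb, and 4.09 upstream of the Rora-202 start), 6 nuclear receptor genes with a peak, and 88.9% of Rora peaks in the first 50% of the gene, an alternative chosen after seeing the data. Requiring 2 peaks left 6 nuclear receptor genes and 1 clock gene. With exons of protein-coding transcripts alone the exonic share of Rora was 0%. Peaks near a start numbered 2 within 10 kb downstream and 1 within 5 kb on both sides. The cause of these changes was not tested. No paired analysis was possible because the list carries no value per library, and no library could be left out for the same reason. Intronic sequence was not used here, so motifs could be read at a single Rora peak.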
